A study of Homo sapiens and Mus musculus with 4 samples.

Results

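The genes described here encode the core proteins of DNA mismatch repair that were chosen by name: MSH3, MSH6, MLH3, PMS1, PMS2 and EXO1, with the mouse genes of the same symbols. They were taken from a list of symbols, which was drawn up with earlier results of these data known, and all were found, giving 6 of 32738 human and 6 of 27998 mouse genes, or 12 of 60736 in the table. Bulk RNA sequencing had been used in a benchmark of single-cell methods to give a reference profile for each of 4 lymphocyte cell lines, and each line gave 1 messenger RNA library. The human lines, Jurkat and TALL104, both derive from T-cell leukaemia. The mouse lines are EL4, from a T lymphoma, and IVA12, a B-cell hybridoma, a fusion of an antibody-producing cell with a myeloma cell. No line carried a treatment or an engineered allele by its labels. The medium or its supplements differed for every line, and TALL104 alone was grown with interleukin-2. Line and medium therefore cannot be told apart in either species. Each line is an immortal tumour or fusion line and stands for itself rather than for a T or B cell type.

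Mismatch repair removes base mispairs and small unpaired loops that DNA polymerases leave behind. A MutS heterodimer first binds the error. MSH6 and MSH3 are alternative partners in it, the MSH6 form reading base mispairs and short loops and the MSH3 form reading longer loops. A MutL heterodimer, in which PMS2, PMS1 and MLH3 are alternative partners, then joins. PMS2 and MLH3 carry the endonuclease that nicks the new strand, MLH3 is best known for meiotic crossing over, and the role of PMS1 is less well defined. EXO1 is the exonuclease that removes the nicked strand before it is copied again. Loss of these functions gives microsatellite instability and is known from lymphoid tumours.

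EXO1 and MLH3 differed most between the human lines, in opposite directions, and their promoters are therefore shown. They come from the RefSeq table of human promoters on GRCh38.p14, which is a later build than the hg19 of the values. Each runs from 250 bases before the transcription start to 30 bases after it, 5′ to 3′ on the gene's strand, at chr1:241847954-241848233 on the plus strand for EXO1 and chr14:75051438-75051717 on the minus strand for MLH3. Capitals mark an E2F-type motif (the letters TTCCCGC or else TTCGCGC or else TTGCCGC or else TTGGCGC) or a GC box (GGGCGG) on either strand.
EXO1: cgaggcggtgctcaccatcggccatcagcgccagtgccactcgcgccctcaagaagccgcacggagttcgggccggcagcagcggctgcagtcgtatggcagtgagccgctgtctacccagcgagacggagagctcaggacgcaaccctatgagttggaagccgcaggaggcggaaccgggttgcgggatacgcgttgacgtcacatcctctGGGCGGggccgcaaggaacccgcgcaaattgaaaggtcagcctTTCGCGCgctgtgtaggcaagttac
MLH3: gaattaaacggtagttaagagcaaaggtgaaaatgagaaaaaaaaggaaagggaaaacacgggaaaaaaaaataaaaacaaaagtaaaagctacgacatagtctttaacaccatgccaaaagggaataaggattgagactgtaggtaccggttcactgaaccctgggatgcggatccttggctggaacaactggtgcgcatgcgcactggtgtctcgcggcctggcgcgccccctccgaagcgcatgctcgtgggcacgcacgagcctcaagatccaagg
The motifs were searched in 11 windows of 300 bases (250 before and 50 after a start) that RefSeq gives for the 6 human genes, some of them overlapping. E2F-type matches are a sequence class known from genes that are switched on for DNA replication. Such a match stood in 9 of 11 windows, against 13% of all 35116 promoter windows of that length. By gene it stood in 5 of 6, counting a gene if any of its windows matched. No share over all genes was computed for that count. MLH3 was the gene without an E2F-type match. The other window without it belongs to a further EXO1 start (chr1:241848481-241848780), which held none of the motifs searched. A GC box stood in 9 of 11 windows (45% of all), a CCAAT box in 4 (34.6% of all) and the cell cycle homology motif (the letters TTTGAA or else TTCGAA) in 0 (16.4% of all). An E2F-type match can overlap a GC box, a CCAAT box or another E2F-type match. A match here is a run of letters and was not tested as a bound site.

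Values are FPKM, the reads of a gene scaled by its length in kilobases and by the library total. The reads behind them were recovered from the steps of the FPKM and totalled 25286728 to 34783047 a library. With 1 library per line there is no spread between replicates, so no test was run, and the intervals given are 95% intervals that cover counting error only. The difference between lines is given as the log2 ratio of FPKM + 1, and a gene was counted as different past 1.5-fold on that scale. The labelled cell types were checked against 8 T-cell and 8 B-lineage markers. T-cell markers summed to 732 FPKM in Jurkat, 588 in TALL104 and 1040 in EL4, with 5 or 6 of 8 at 1 FPKM or more, and to 11.4 in IVA12, with 2 of 8. B-lineage markers summed to 2059 FPKM in IVA12, with 5 of 8 at 1 FPKM or more, and to 64.4 in Jurkat, 39.3 in TALL104 and 0.881 in EL4. In IVA12 Cd79a and Pax5 were near 0, at 0.0543 and 0.156 FPKM, while the plasma-cell genes Jchain and Sdc1 were at 1289 and 60.2. The T-cell co-receptor CD4 stood at 0.985 FPKM in Jurkat, and its mouse gene at 0.208 in EL4, which the study calls CD4 lines. Reads of the 6 human genes in the mouse libraries reached 5 at most and those of the 6 mouse genes in the human libraries 4 at most. The highest FPKM of such values were 0.0201 and 0.0270, which gives the level of reads assigned to the other species.

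In the human pair, 4 of 6 mismatch repair genes were higher in Jurkat (EXO1, MSH6, PMS1 and PMS2), MLH3 was higher in TALL104, and MSH3 lay within 1.5-fold. The count of 5 of 6 past 1.5-fold stands beside 25.3% of all human genes, or 62.6% of the 12214 with at least 1 FPKM in either line. Of those expressed genes 34.2% were higher in Jurkat and 28.4% in TALL104. The median log2 ratio of the 6 genes was 0.62, and that of the expressed genes was 0.10. In the mouse pair, Mlh3 was higher in EL4, Pms1 and Pms2 were higher in IVA12, and Msh3, Msh6 and Exo1 lay within 1.5-fold. Those 3 of 6 stand beside 21.0% of all mouse genes, or 50.3% of the 10801 expressed ones, with 23.8% higher in EL4 and 26.5% higher in IVA12. The mouse median was -0.29, and that of the expressed genes was -0.04. The mouse share of 3 of 6 lay at the background of expressed genes, and the human share of 5 of 6 rests on too few genes to be set apart from it. A lower level in a library and fewer cells with the transcript cannot be told apart in bulk RNA.

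**Figure D1:**
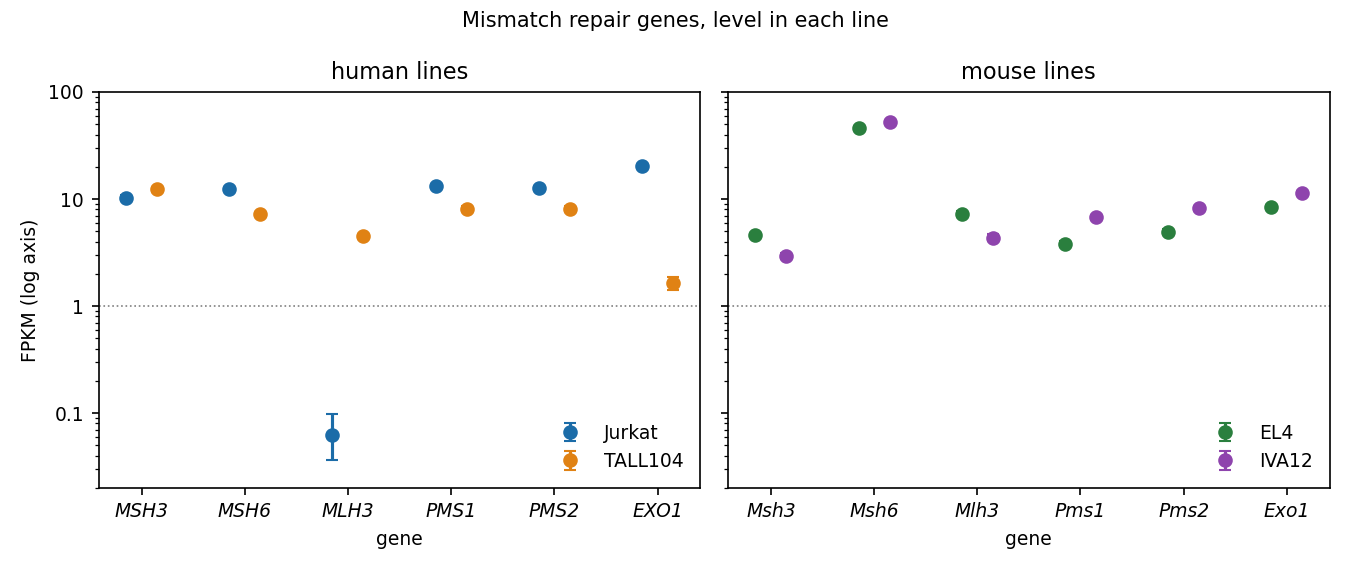
FPKM (log axis) of the 6 mismatch repair genes in the human lines (left) and the mouse lines (right). Points are single libraries, bars are 95% counting intervals (often smaller than the point), and the dotted line is 1 FPKM. MLH3 in Jurkat, at 0.0619 FPKM, is the value below that line, and Msh6 is the highest gene in both mouse lines.

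MSH6, the mispair-reading partner (hg19 chr2:47922669-48037202), stood at 12.5 FPKM in Jurkat (95% interval 12.1 to 12.8, 4689 reads) and at 7.23 in TALL104 (6.93 to 7.54, 2214 reads). Jurkat was higher, with an FPKM ratio of 1.73 (1.64 to 1.82) and a log2 ratio of 0.71. Msh6 (mm10 chr17:87975062-87990892) stood at 46.5 FPKM in EL4 (45.4 to 47.7, 6364 reads) and at 52.4 in IVA12 (51.1 to 53.8, 5639 reads). The mouse lines were thus close, with a log2 ratio of -0.17. Msh6 lay above 87.6% of the genes expressed in EL4 and above 89.1% of those in IVA12, and MSH6 above 62.3% in Jurkat and 43.4% in TALL104. This position depends on gene length as well as on reads. The lengths recovered from the FPKM were 10805 bases for human MSH6 and 4254 for mouse Msh6. The lengths the authors divided by are not given in the sources used here, so these are inferred and may lack a common factor. The coding lengths of human MSH6 and mouse Msh6 are 4080 and 4074 bases. In GENCODE release 44, where MSH6 spans 17722 exon bases, 22.7% of them are shared with FBXO11, a ubiquitin ligase subunit on the opposite strand. The share in the annotation the authors counted on is not known. FBXO11 stood at 6.59 FPKM in Jurkat and 15.3 in TALL104, lower in Jurkat where MSH6 was higher. The strand setting of the counting is not stated in the sources used here, and any exchange of reads between MSH6 and FBXO11 was not tested.

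MSH3, the loop-reading partner (hg19 chr5:79950471-80172634), stood at 10.3 FPKM in Jurkat (9.82 to 10.8, 1688 reads) and at 12.3 in TALL104 (11.7 to 12.9, 1645 reads). It was the member nearest to equal between the human lines, with a log2 ratio of -0.24 and an FPKM ratio of TALL104 over Jurkat of 1.2 (1.12 to 1.28). Msh3 (mm10 chr13:92211872-92355003) stood at 4.60 FPKM in EL4 (4.38 to 4.82, 1663 reads) and 2.95 in IVA12 (2.75 to 3.15, 839 reads). Its log2 ratio of 0.50 lay inside the threshold, although its FPKM ratio without the added 1 was 1.56 (1.43 to 1.70).

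MSH6 and MSH3 compete for the same MutS partner, so their shares of the summed FPKM were compared. MSH6 made up 54.8% of MSH3 plus MSH6 in Jurkat (53.4 to 56.2) and 37.0% in TALL104 (35.5 to 38.5). Among mouse lines it made up 91.0% in EL4 (90.6 to 91.4) and 94.7% in IVA12 (94.3 to 95.0). The human pair thus differed by more than counting error, with the larger MSH6 share in Jurkat. These shares depend on the length used. Per coding length, an alternative chosen after the data were seen, the MSH6 share was 69.9% for Jurkat, 52.9% for TALL104, 75.5% for EL4 and 84.4% for IVA12. In TALL104 MSH6 thus lay below MSH3 by FPKM and above it per coding length. The order of the lines within a species cannot change with the length used.

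PMS2, the main MutL partner in mitotic repair (hg19 chr7:6010556-6048761), stood at 12.7 FPKM in Jurkat (12.1 to 13.3, 1736 reads) and at 8.04 in TALL104 (7.52 to 8.58, 897 reads). Jurkat was higher, with an FPKM ratio of 1.58 (1.45 to 1.71) and a log2 ratio of 0.60. Pms2 (mm10 chr5:143909964-143933968) stood at 4.94 FPKM in EL4 (4.67 to 5.21, 1288 reads) and at 8.16 in IVA12 (7.77 to 8.56, 1675 reads), higher in IVA12 with a log2 ratio of -0.63. Human PMS2 has near-identical copies: 8.17% of its exon windows of 100 bases occur in other annotated genes, PMS2CL among them, and 0 of the 14 annotated PMS2 copies are rows of the table used here. The PMS2 level is uncertain by the reads those copies may hold. Mouse Pms2 shares 4.85% of its exon bases with Gm42421 and 1.05% with Rsph10b, both on the same strand. The effect of these overlaps on its reads was not tested.

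PMS1, the MutL partner of less certain function (hg19 chr2:190648811-190742355), stood at 13.2 FPKM in Jurkat (12.7 to 13.8, 2370 reads) and at 8.13 in TALL104 (7.68 to 8.61, 1188 reads). Jurkat was higher, with an FPKM ratio of 1.63 (1.52 to 1.74) and a log2 ratio of 0.64. Pms1 (mm10 chr1:53189187-53297018) stood at 3.77 FPKM in EL4 (3.53 to 4.02, 914 reads) and at 6.78 in IVA12 (6.42 to 7.16, 1293 reads), higher in IVA12 with a log2 ratio of -0.71. The PMS1 and PMS2 genes thus shared a direction in each pair. Both human calls lie near the threshold and were lost when the ratios were scaled so that the median expressed gene was equal, at 0.54 for PMS1 and 0.50 for PMS2.

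MLH3, the MutL partner known from meiosis (hg19 chr14:75480472-75518235), had 18 reads in Jurkat, or 0.0619 FPKM (0.0367 to 0.0978), and 1060 reads in TALL104, or 4.47 FPKM (4.21 to 4.75). Among the 12 genes in the libraries of their own species, this was the value under 1 FPKM. TALL104 over Jurkat gave an FPKM ratio of 72.3 (45.5 to 122), while the log2 ratio of FPKM + 1 was -2.37, since the added 1 draws so low a value up. Of the 12214 expressed human genes, 650 had a log2 ratio as low as this or lower. The 18 reads exceed the set floor of 3 reads and the 1 read of human MLH3 in EL4. None of the MLH3 exon windows of 100 bases occur in another annotated gene. Mlh3 (mm10 chr12:85234520-85270599) stood at 7.25 FPKM in EL4 (6.85 to 7.66, 1269 reads) and at 4.36 in IVA12 (4.02 to 4.73, 601 reads), higher in EL4 with a log2 ratio of 0.62.

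The summed FPKM of the 3 MutL partners was split between them, and by FPKM the share of MLH3 varied most between lines, from 0.238% to 45.4%. Per coding length PMS1 varied slightly more, from 29.4% to 56.0%, than MLH3, from 0.273% to 26.5%. In Jurkat PMS2 made up 48.8% (47.3 to 50.4), PMS1 50.9% (49.4 to 52.5) and MLH3 0.238% (0.141 to 0.377). In TALL104 PMS2 made up 38.9% (37.1 to 40.8), PMS1 39.4% (37.7 to 41.1) and MLH3 21.7% (20.4 to 22.9). PMS2 and PMS1 thus stood at near-equal levels in both human lines on this scale. In EL4 MLH3 held the largest share, at 45.4% (43.7 to 47.2), with PMS2 at 30.9% and PMS1 at 23.6%. In IVA12 PMS2 led at 42.3% (40.7 to 43.9), with PMS1 at 35.1% and MLH3 at 22.6%. The lead of MLH3 in EL4 did not hold per coding length, where PMS2 had 44.2%, PMS1 29.4% and MLH3 26.5%. Per coding length PMS1 led in both human lines, with 56.0% against 43.8% for PMS2 in Jurkat and 42.0% against 33.9% in TALL104.

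**Figure D2:**
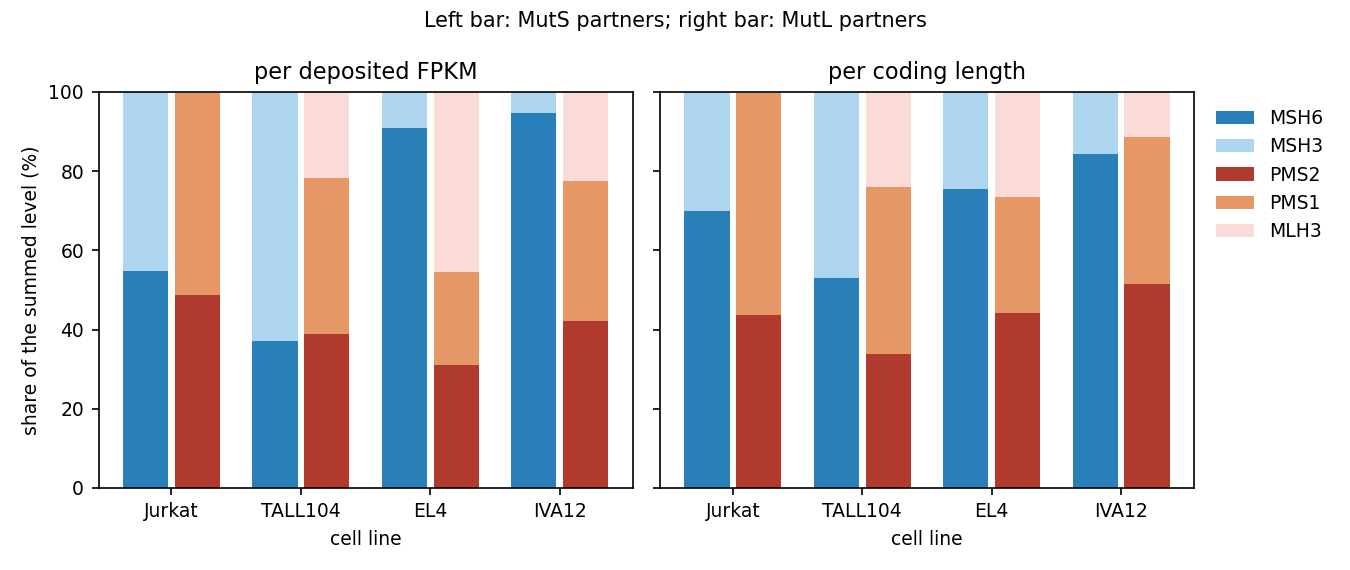
Share (%) of the summed level held by each alternative partner in each line, from deposited FPKM (left) and from reads per coding length (right). In each line the left bar splits MSH6 and MSH3 and the right bar splits PMS2, PMS1 and MLH3. MLH3 is invisible in Jurkat at 0.238%, and MSH6 fills 91.0% and 94.7% of the MutS bar in the mouse lines on the FPKM scale.

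EXO1, the exonuclease (hg19 chr1:242011269-242058450), stood at 20.5 FPKM in Jurkat (19.7 to 21.2, 2948 reads) and at 1.63 in TALL104 (1.40 to 1.88, 191 reads). It was the member with the largest excess in Jurkat, with an FPKM ratio of 12.6 (10.9 to 14.6) and a log2 ratio of 3.03. Of the 12214 expressed human genes, 266 had a log2 ratio as high or higher. EXO1 went from the highest of the 6 genes in Jurkat to the lowest in TALL104 on the FPKM scale. In Jurkat it lay above 77.7% of the expressed genes and in TALL104 above 7.62%. Exo1 (mm10 chr1:175880581-175913489) stood at 8.41 FPKM in EL4 (8.06 to 8.76, 2276 reads) and at 11.4 in IVA12 (11.0 to 11.9, 2438 reads), with a log2 ratio of -0.40.

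Within each line the genes were ordered by FPKM. In Jurkat the order was EXO1, PMS1, PMS2, MSH6, MSH3 and MLH3, and the neighbours PMS1 and PMS2, and PMS2 and MSH6, did not differ beyond counting error. In TALL104 it was MSH3, PMS1, PMS2, MSH6, MLH3 and EXO1, with the same neighbouring intervals overlapping. In EL4 it was Msh6, Exo1, Mlh3, Pms2, Msh3 and Pms1, where Pms2 and Msh3 overlapped. In IVA12 it was Msh6, Exo1, Pms2, Pms1, Mlh3 and Msh3 with no overlap. Per coding length MSH6 was first in TALL104, EL4 and IVA12, at 19.1, 48.6 and 54.7 on the scale of reads per kilobase of coding length and library total, and second in Jurkat at 33.0, where its interval overlapped that of EXO1 at 33.4. Msh6 was thus the highest of the 6 in both mouse lines on either scale.

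Mismatch repair works behind the replication fork, so 13 genes of proliferating cells were set beside the 6. All 13 were higher in Jurkat than in TALL104, with log2 ratios of 1.77 to 4.41 and a median of 3.13. CCNB1, the mitotic cyclin B, stood at 116 FPKM in Jurkat and 4.51 in TALL104, and CDK1, its kinase, at 71.2 and 3.96. The log2 ratio of EXO1 lay above those of 6 of the 13 genes and below those of 7. The other 5 mismatch repair genes lay below all 13. MSH3 and MLH3 did not share the direction. In the mouse pair 3 of 13 were higher in EL4, 1 in IVA12 and 9 within 1.5-fold, with a median of 0.22. Ccne2, cyclin E2, stood at 2.87 FPKM in EL4 and 22.3 in IVA12, and Mcm5, a subunit of the replicative helicase, at 162 and 89.3. Exo1 lay above 2 of the 13 and Mlh3 above 11. The study describes TALL104 as small, slow to grow and harder to culture, with low viability. The part that growth rate or viability has in the mismatch repair values was not tested.

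The later steps of the pathway were followed in 14 genes for the sliding clamp, its loader, single-strand binding, DNA polymerase delta and the ligase. In the human pair 11 were higher in Jurkat, 1 in TALL104 and 2 within 1.5-fold, with a median log2 ratio of 1.35. RFC3, a clamp loader subunit, stood at 47.8 FPKM in Jurkat and 3.07 in TALL104, and POLD2, the second subunit of polymerase delta, at 47.1 and 7.0. POLD4, its smallest subunit, went the other way at 2.62 and 13.9 FPKM, and was singled out after its value was seen. In the mouse pair 5 of 14 were higher in EL4 and 2 in IVA12, with a median of 0.33. Pold1, the catalytic subunit, stood at 41.9 FPKM in EL4 and 19.0 in IVA12, and Lig1, the ligase, at 87.2 and 40.6. The 2 genes higher in IVA12, named after their values were seen, were Rfc4 at 41.1 and 64.8 and Rpa3 at 28.9 and 54.8. The human medians of 0.62 for the 6 mismatch repair genes and 1.35 for these 14 are a description without a test.

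**Figure D3:**
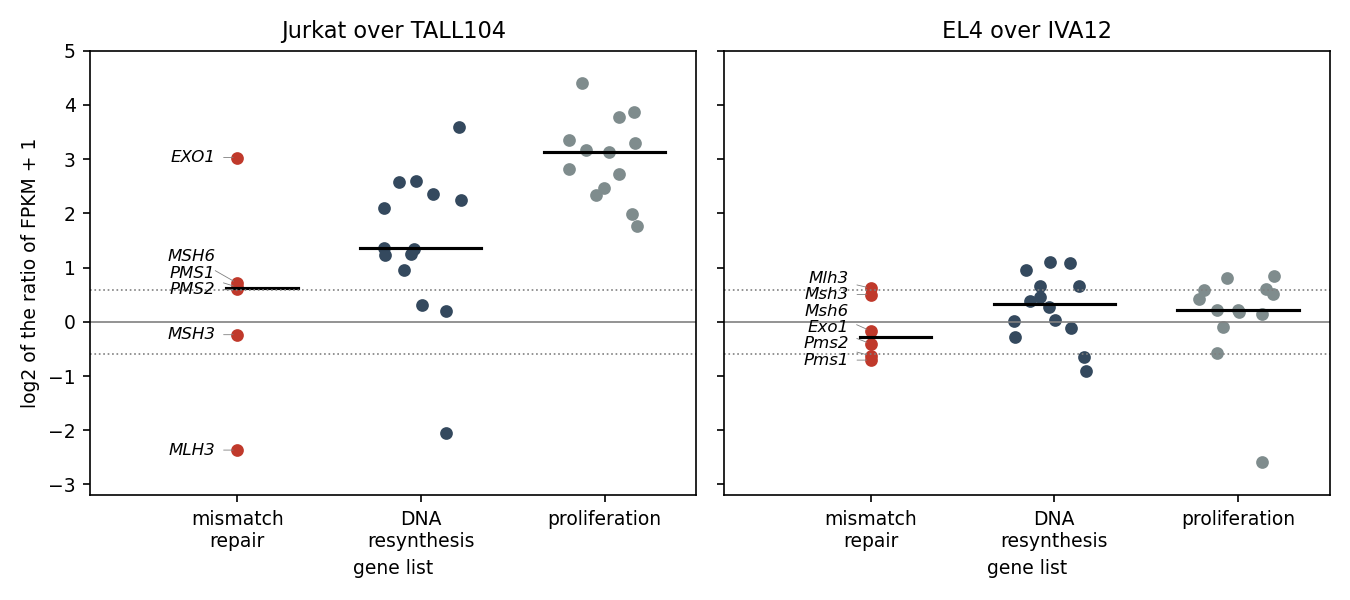
Log2 ratio of FPKM + 1 between the lines of each species for the 6 mismatch repair genes, 14 DNA resynthesis genes and 13 proliferation genes. Each point is a gene, black lines are medians and dotted lines mark 1.5-fold. All 13 human proliferation genes lie between 1.77 and 4.41, and EXO1 at 3.03 is the mismatch repair gene within that range.

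Of the accessory genes, 3 of 6 were higher in Jurkat and 3 lay within 1.5-fold. HMGB1, a chromatin protein that aids excision, stood at 184 FPKM in Jurkat and 55.3 in TALL104. CHAF1A, a histone chaperone subunit at replication forks, stood at 29.9 and 4.13. MGMT, which removes alkyl groups from guanine that would otherwise engage mismatch repair, stood at 8.09 and 2.05. The genes within 1.5-fold were MCM9, a helicase used in repair, at 2.02 and 3.29, FAN1, a nuclease that binds the MutL dimer, at 11.1 and 16.5, and SETD2, the histone methyltransferase whose mark recruits MSH6, at 21.5 and 27.9. In the mouse pair Mgmt was listed at 0 in EL4 and stood at 10.9 FPKM in IVA12 (225 reads), and Hmgb1 was higher in EL4 at 110 against 52.0. Chaf1a, Mcm9, Fan1 and Setd2 lay within 1.5-fold.

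The germline MutS homologues MSH4 and MSH5 act in meiotic crossing over. MSH4 stood at 0.546 FPKM in Jurkat and 0.205 in TALL104, and Msh4 at 0.0316 in EL4 and 0.0574 in IVA12. MSH5 stood at 3.73 FPKM in Jurkat and 1.72 in TALL104, past 1.5-fold with a log2 ratio of 0.80, and Msh5 at 1.56 and 0.952.

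PMS1 and PMS2 each start close to a gene on the opposite strand, and the member and its neighbour were compared. ORMDL1, a regulator of sphingolipid synthesis, starts 279 bases from PMS1 and stood at 17.1 FPKM in Jurkat and 33.3 in TALL104. The 2 human genes overlap in GENCODE release 44, where 96 bases, or 1.76% of the PMS1 exon bases, are shared. The effect of this overlap on their reads was not tested. The log2 ratio of ORMDL1, -0.92, is opposite in sign to the 0.64 of PMS1. In the mouse lines Ormdl1 stood at 7.37 and 6.33, a log2 ratio of 0.19 against -0.71 for Pms1. AIMP2, a scaffold of the aminoacyl-tRNA synthetase complex, starts 125 bases from PMS2 and stood at 28.4 and 8.14, a log2 ratio of 1.68 against 0.60 for PMS2. Aimp2 stood at 30.5 in EL4 and 44.2 in IVA12, with -0.52 against -0.63 for Pms2. PMS2 and AIMP2 thus shared a sign in both species and PMS1 and ORMDL1 in neither.

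**Figure D4:**
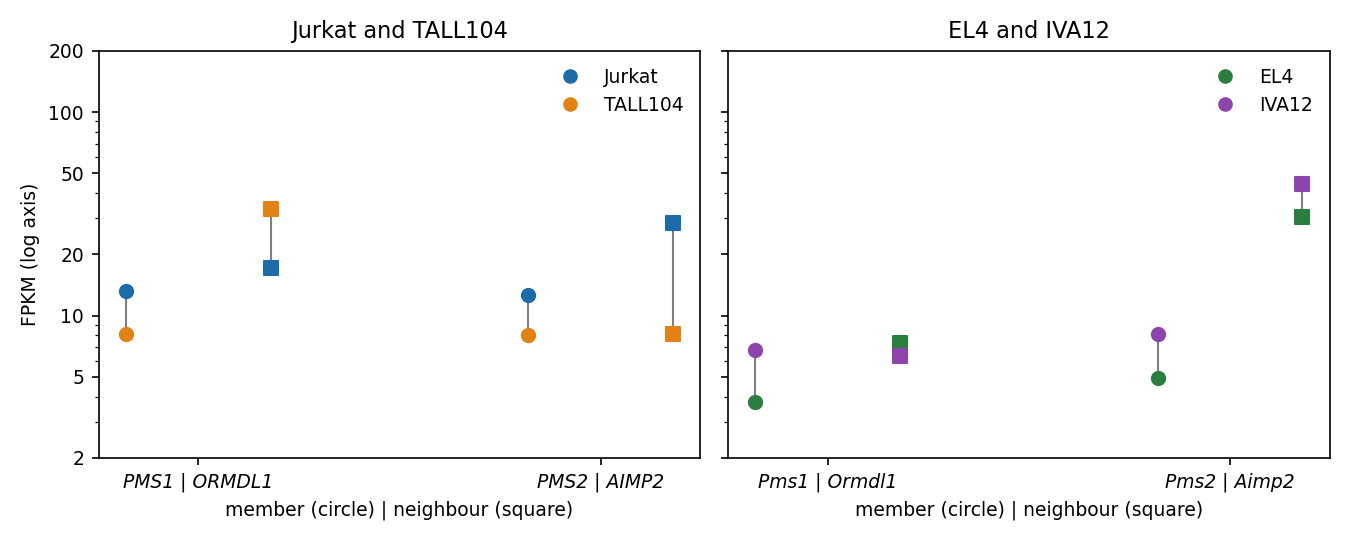
FPKM (log axis) of PMS1 and PMS2 (circles) and of the gene starting on the opposite strand beside each (squares) in the human lines (left) and the mouse lines (right). Each point is a library and a grey line joins the lines of a species. AIMP2 spans 8.14 to 28.4 FPKM between the human lines and PMS2 8.04 to 12.7.

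The genes most like each member were sought among 6930 genes with a symbol shared between species and at least 1 FPKM in every line of their species, by the root mean square difference of log2(FPKM + 1) over the 4 lines. For EXO1 these were SKA1 (0.15), STIL (0.26) and KIF14 (0.27), and SKA1 stood at 21.9, 1.38, 10.2 and 10.9 FPKM in Jurkat, TALL104, EL4 and IVA12. For MSH3 they were CCDC174 (0.14), TSC1 (0.17) and RAB2B (0.18). For MSH6 they were MBD3 (0.17), CSNK2B (0.17) and GTF2H1 (0.18). For PMS1 they were MED18 (0.10), ELP6 (0.11) and FASTKD1 (0.12), and for PMS2 ZUP1 (0.12), ZZZ3 (0.13) and RP2 (0.13). MLH3 had no close match, the nearest being HS1BP3 (0.54), TRAF3IP2 (0.56) and STRADA (0.60), since genes had to reach 1 FPKM in Jurkat to be candidates. With 4 libraries and 6930 candidates, nothing is drawn from it about function or control.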

How the data were processed

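RNA was isolated from Jurkat, TALL104, EL4 and IVA12 cells, and 1 stranded messenger RNA library per line was sequenced. The authors aligned the reads with STAR 2.5.1b to a combined hg19 and mm10 reference and counted them with featureCounts 1.6.3. The authors deposited 1 table of FPKM values with human and mouse genes. Gene lengths, the strand setting and the handling of multiply aligned reads are not given in the sources used here. The table held 0 further columns of library values.

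Reads were recovered from the FPKM as the smallest whole numbers that gave each value at a relative tolerance of 1e-12 over gene lengths up to 300000 bases. For 4 of the 12 genes this gave the annotated exon length. The reads of the other 8 may lack a common factor. Their intervals would then be too wide, and their levels by reads and per coding length too low. Shares by reads and per coding length could then err either way, since a partner's share would rise. FPKM would not change. The recovery and the ratios were tested on simulated data in which every gene had its annotated length. The case of those 8 genes was therefore not covered. The library totals were 34783047 (Jurkat), 28345951 (TALL104), 32149319 (EL4) and 25286728 (IVA12) reads. Single counts have exact Poisson intervals, and ratios and shares have exact binomial intervals of the reads, all at 95%. Lines were compared within a species on FPKM with a pseudocount of 1, past 1.5-fold, without a test. Positions, lengths and overlaps were read from GENCODE release 44 as mapped to GRCh37 and the mouse GENCODE release on GRCm38, matched by gene identifier, with a symbol for 31182 human and 27722 mouse identifiers.

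The members, gene lists and thresholds were chosen with earlier results of these data known. The genes named are the 6 members per species, the 2 genes of the resynthesis and proliferation lists whose log2 ratio was largest in size in each pair, all accessory, germline and neighbour genes (with an item of these lists not reported here), and the 3 nearest genes by profile. Alternatives were pseudocounts of 0.1 and 0.01, 2 other scalings, a filter on low genes and a 2-fold threshold. Python 3.11.15, NumPy 2.4.6, pandas 2.3.3, SciPy 1.17.1 and matplotlib 3.10.9 were used.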

Additional observations from a re-analysis of the deposited data

Results flagged for a closer look

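In the mouse line IVA12, 5 reads were listed for the human MSH6 gene, and in the human line Jurkat, 4 reads were listed for the mouse Msh6 gene. Both are signals in rows outside the comparisons, above the set floor of 3 reads. The same libraries held 5639 reads of their own Msh6 and 4689 of their own MSH6. Reads assigned to the other species were not tested further.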

How the results depend on the processing

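No paired analysis was possible because each line has 1 library, and no replicate could be left out. No between-line ratio of a mismatch repair gene changed sign under the 2 scalings, and the other alternatives could not change one. Within TALL104 MSH6 turned from below MSH3 by FPKM to above it by reads and per coding length, and within EL4 MLH3 turned from the highest MutL share by FPKM to the lowest per coding length. In the human pair 5 mismatch repair genes lay past 1.5-fold as reported, 3 with the median ratio of genes at 1 FPKM or more in both lines set to 0 (a shift of 0.10), and 2 past 2-fold. In the mouse pair 3 lay past 1.5-fold and 0 past 2-fold. Msh3 passed 1.5-fold only at pseudocounts of 0.1 and 0.01, and MLH3 ranged from -5.96 to -2.37 in log2. All human genes past the threshold numbered 8271 as reported, 12491 and 15323 at pseudocounts of 0.1 and 0.01, and 5022 past 2-fold. For mouse they numbered 5868, 11022 at 0.01 and 3420 past 2-fold. The human proliferation median was 3.31 and 3.32 at the smaller pseudocounts and 3.03 with the median ratio at 0.

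By recovered reads, not per length, MSH6 made up 73.5% of MSH3 plus MSH6 for Jurkat, 57.4% for TALL104, 79.3% for EL4 and 87.0% for IVA12, and PMS2 42.1%, 28.5%, 37.1% and 46.9% of the MutL partners. Per coding length, an alternative chosen after seeing the data, MSH6 made up 69.9%, 52.9%, 75.5% and 84.4%, and PMS2 43.8%, 33.9%, 44.2% and 51.5%. The length in the denominator differs by construction. Of the other results under alternatives, 43 main and 38 single-gene values stayed within counting error or 1.5 times, and 10 single-gene values moved by more. Levels compared between genes depend on the lengths used, and 18 reads of MLH3 in Jurkat limit the precision of its ratio.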
